A study of Mus musculus with 8 samples.

Results

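The genes described here are the receptors and ligands of the Notch pathway, 10 genes chosen by name and matched to the gene symbols of the count tables, which hold 23284 genes. They comprise the 4 receptor genes Notch1 to Notch4, the 4 activating ligand genes Jag1, Jag2, Dll1 and Dll4, and the 2 inhibitory ligand genes Dll3 and Dlk1. All 10 symbols were found. RNA was sequenced from 8 libraries of preSC cells, cultured mouse precancerous neuroendocrine cells of the lung that serve as a model of early small cell lung cancer. In 4 libraries the cells had received a guide RNA against Max, and in 4 a control guide. Both groups were polyclonal populations on a mixed background of 129/SvJ and C57BL/6, selected with puromycin, expanded and given no treatment. Both also carried the Chga-GFP reporter, in which Chga marks neuroendocrine cells, and lox alleles of Rb, p53 and p130. The labels do not say whether these alleles were recombined, what share of cells carried an edited Max, or whether replicate libraries stem from independent cultures. The p-values below therefore reflect no more than the variation among these libraries, possibly technical. MAX is the partner through which MYC proteins bind DNA, and the comparison asked which genes differ once it is targeted.

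Notch receptors are single-pass membrane proteins that are cut when a ligand on a neighbouring cell pulls on them. The freed intracellular part enters the nucleus and, with the DNA-binding protein RBPJ, turns on repressor genes of the Hes and Hey families. In the lung, Notch signalling holds back the neuroendocrine fate, and neuroendocrine cells themselves carry ligands. DLL3 differs from the other Delta proteins in that it stays mostly inside the cell and does not activate receptors on neighbours, and DLK1 lacks the domain by which ligands activate the receptor, so both are known as inhibitory ligands.

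Counts in genes ranged from 14952291 to 19480947 reads in the knockout libraries and from 13711278 to 19804949 in the controls. Levels are given in CPM (read counts scaled to library size), on which scale 1 read was worth 0.0503 to 0.0732 CPM and 3 reads, the level that a count of 0 allows, 0.151 to 0.220 CPM (counting error only). Max itself ranged from 42.3 to 68.0 CPM in the knockout libraries and from 61.9 to 75.2 CPM in the controls, and this difference was not past the threshold (edgeR adjusted p = 0.0955). Neuroendocrine marker genes summed to 2775 to 3013 CPM in the knockout and 2701 to 4164 CPM in the control, with all 7 present. Of these, Scg2 was lower in the knockout (96.0 ± 10.8 against 142 ± 26.2 CPM) and Uchl1 higher (748 ± 62.0 against 564 ± 126 CPM; SD, n = 4 each). The spread of the control sums was mainly that of Calca, at 1980 and 1783 CPM in controls 1 and 2 and 399 and 467 CPM in controls 3 and 4. The 8 endothelial markers summed to 1.13 to 1.60 and 1.07 to 2.56 CPM (Emcn listed at 0), the 6 haematopoietic markers to 73.4 to 81.6 and 75.9 to 87.3 CPM, nearly all of it Coro1a (Tyrobp listed at 0), and the 8 markers of other lung epithelium to 6.64 to 8.67 and 8.78 to 10.1 CPM (Krt5 listed at 0). The 8 fibroblast markers summed to 49.3 to 65.8 and 24.4 to 44.5 CPM, nearly all of it Dcn (Lum listed at 0). Among them Dcn was higher in the knockout (55.5 ± 6.78 against 32.3 ± 9.77 CPM) and Pdgfra lower (0.260 ± 0.139 against 1.35 ± 0.639 CPM; SD, n = 4 each), Col1a1 had 30 reads in all, and their part in the results below was not tested. Controls 3 and 4 had 23.3% and 23.4% of reads in the no-feature class of the counting tool (reads not assigned to any annotated feature). Controls 1 and 2 had 18.5% and 18.6%, and the knockout libraries 20.5% to 21.5%. Over all genes, only controls 1 and 2 were close to each other (chi-square per degree of freedom 4.55). The other control pairs, including controls 3 and 4 (24.5), were at 23.5 to 35.7, in the range of pairs of a knockout and a control library (18.5 to 40.1), whereas knockout pairs were at 3.70 to 9.34. Control 4 was at 18.5 to 23.3 with the knockout libraries and at 23.5 to 27.2 with the other controls. Its Pearson correlations of log2 CPM were 0.980 to 0.982 with the knockout libraries and 0.982 to 0.983 with the other controls. Results on members are therefore also given with only controls 1 and 2 or only controls 3 and 4.

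Of the 10 genes, 3 were lower in the Max knockout, namely the receptor Notch2, the activating ligand Jag1 and the inhibitory ligand Dll3. None was higher, 4 did not pass the threshold, and Notch1, Notch3 and Dlk1 had too few reads to be tested. Called genes made up 23.1% of all 13358 tested genes (10.9% higher and 12.2% lower), by edgeR's quasi-likelihood test at a Benjamini-Hochberg adjusted p under 0.05, so 3 of 7 is a count to be read against that background. The median log2 difference of the 7 tested members was -0.11, and that of all tested genes was -0.00362. The same 3 genes had knockout values that did not overlap the control values, which was the case for 26.4% of all tested genes. All 3 kept their direction and their call in each of 18 alternative analyses, including those that left out 1 library and those that kept only 2 controls.

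**Figure D1:**
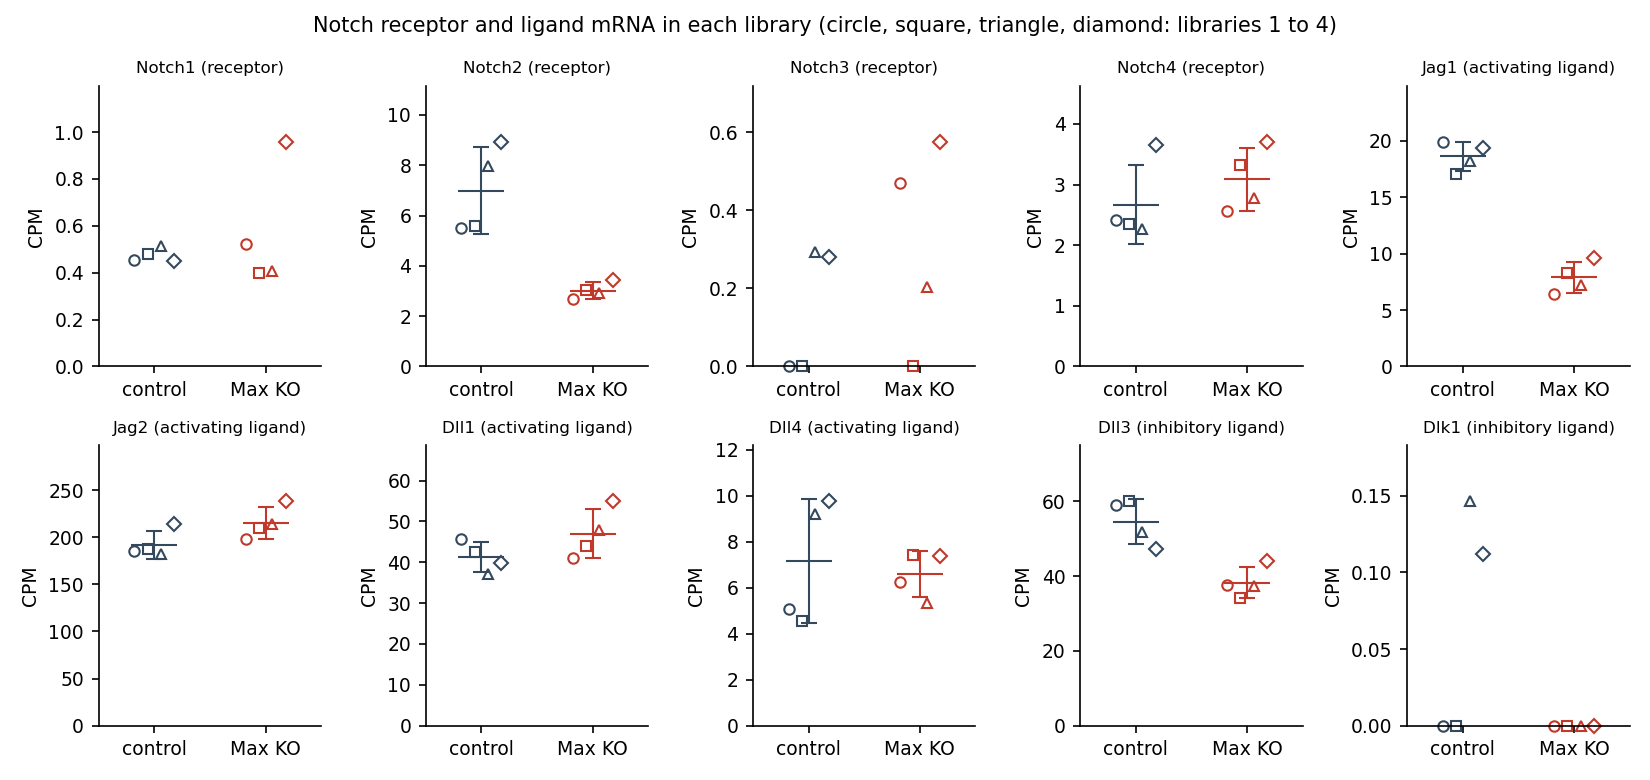
Level of each of the 10 genes in CPM (y axis, linear and starting at 0) in the 4 control and 4 Max knockout libraries. Each symbol is 1 library, and the bar and whiskers are the mean and SD of 4 libraries, omitted for the 3 untested genes. The knockout points lie below all control points for Notch2, Jag1 and Dll3, and the groups overlap for the other genes.

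Among the receptors, Notch2 was measured at 2.66, 3.05, 2.91 and 3.45 CPM in the knockout libraries (in order 1 to 4) against 5.49, 5.59, 7.98 and 8.92 CPM in the controls. All knockout values were below all control values, and controls 3 and 4 were the highest. The fitted difference was -1.21 on the log2 scale, 2.31-fold lower (SE 0.20, 95% interval -1.64 to -0.78, edgeR adjusted p = 0.00113). Its size depended on which controls were used, at -0.88 with controls 1 and 2 (adjusted p = 0.000351) and -1.50 with controls 3 and 4 (adjusted p = 0.000103). These fits called 44.6% and 20.7% of all tested genes, and with 2 controls each their p does not measure the variation among all controls. The number of reads was small, 43 to 54 per knockout library and 93 to 159 per control. Because the samples are bulk cultures, fewer cells with the transcript and less transcript per cell cannot be told apart, here and for the genes below.

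Notch4, a receptor best known from endothelium, was measured at 2.56, 3.32, 2.78 and 3.70 CPM in the knockout libraries, compared with 2.42, 2.35, 2.27 and 3.65 CPM in the controls. The groups overlapped, because control 4 was above 3 of the 4 knockout libraries. The difference of 0.20 (95% interval -0.27 to 0.68) did not pass the threshold (edgeR adjusted p = 0.552), so a change of up to about this interval in either direction cannot be told from none. The difference was 0.36 with controls 1 and 2 and 0.03 with controls 3 and 4, neither past the threshold (adjusted p = 0.177 and 0.949). Notch4 had 381 reads in all 8 libraries together. Of the 8 endothelial markers, Pecam1 had 93, Tek 53, Esam 35, Kdr 12, Cdh5 9, Tie1 4, Cldn5 2 and Emcn none, and their part in the level of Notch4 was not tested.

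Notch1 and Notch3 were close to the limit of detection. Notch1, the receptor most widely used in development, had 10, 6, 6 and 15 reads in the knockout libraries and 9, 8, 7 and 8 in the controls, or 0.40 to 0.96 and 0.45 to 0.51 CPM. Notch3 had 9, 0, 3 and 9 reads in the knockout and 0, 0, 4 and 5 in the control. Without the filter on low counts, the difference was 0.28 for Notch1 (SE 0.40, edgeR adjusted p = 0.695) and 1.20 for Notch3 (SE 0.95, edgeR adjusted p = 0.477). No difference was detectable for either gene at this depth.

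Among the activating ligands, Jag1 was the member with the largest difference. Jag1 encodes a Serrate-type ligand and stood at 6.42, 8.29, 7.18 and 9.63 CPM in knockout libraries 1 to 4 against 19.9, 17.0, 18.2 and 19.4 CPM in controls 1 to 4. The highest knockout library was well below the lowest control, and the controls were close together. The mean fell from 18.6 ± 1.27 to 7.88 ± 1.40 CPM (SD, n = 4 each; -1.24 on the log2 scale, 2.37-fold, SE 0.13, edgeR adjusted p = 8.33e-05). Unlike Notch2, Jag1 gave nearly the same value with controls 1 and 2 (-1.24) as with controls 3 and 4 (-1.27).

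Its paralogue Jag2 was the most abundant of the 10 genes. The knockout libraries had 198, 209, 214 and 238 CPM and the controls 185, 187, 182 and 214 CPM, so that control 4 lay among the knockout libraries. The means were 215 ± 16.8 and 192 ± 14.9 CPM (SD, n = 4 each), a difference of 0.16 that did not pass the threshold (95% interval -0.02 to 0.34, edgeR adjusted p = 0.182). With only controls 1 and 2 kept, it did (0.21, adjusted p = 0.0324), in a fit where 44.6% of all tested genes were called, and with only controls 3 and 4 it did not (0.11, adjusted p = 0.497).

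Dll1, a Delta ligand of neural and neuroendocrine development, had 41.1, 44.1, 47.9 and 54.9 CPM in the knockout libraries against 45.7, 42.5, 37.0 and 39.8 CPM in the controls. The groups overlapped, and the difference of 0.19 (95% interval -0.04 to 0.41) did not pass the threshold (edgeR adjusted p = 0.222). With controls 1 and 2 the difference was 0.09 and with controls 3 and 4 it was 0.28, neither past the threshold (adjusted p = 0.4997 and 0.117). The lower end of the interval is above the fitted change of Dll3, given below.

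Dll4, the Delta ligand of endothelial sprouting, split with the controls. It was at 5.08 and 4.57 CPM in controls 1 and 2 and at 9.22 and 9.76 CPM in controls 3 and 4, with the knockout libraries in between at 6.26, 7.43, 5.35 and 7.40 CPM. The overall difference of -0.11 (95% interval -0.64 to 0.42) did not pass the threshold (edgeR adjusted p = 0.793). Against controls 1 and 2, in a fit that called 44.6% of all tested genes, Dll4 was higher in the knockout (0.45, edgeR adjusted p = 0.0344). Against controls 3 and 4, in a fit that called 20.7%, it was lower (-0.53, edgeR adjusted p = 0.0336). Each of these fits held only 2 controls, so neither p measures the variation among all controls. Without control 3 or control 4 the difference of Dll4 was above 0 (0.03 and 0.09). The controls with more Dll4 were those with 23.3% and 23.4% of reads in the no-feature class, and the part of this in the result was not tested.

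Of the inhibitory ligands, Dll3, a surface target studied in small cell lung cancer, was measured at 37.5, 34.2, 37.3 and 44.0 CPM in the knockout against 59.1, 60.0, 51.9 and 47.4 CPM in the controls. The groups did not overlap, although control 4 and knockout library 4 were close. Dll3 fell from 54.6 ± 6.04 to 38.2 ± 4.14 CPM (SD, n = 4 each; -0.51 on the log2 scale, 1.43-fold, SE 0.10, 95% interval -0.74 to -0.29, edgeR adjusted p = 0.00398). The fall was by 0.64 on the log2 scale with controls 1 and 2 (adjusted p = 1.32e-05) and by 0.38 with controls 3 and 4 (adjusted p = 0.0256). These fits with 2 controls called 44.6% and 20.7% of all tested genes. Dlk1, an imprinted gene of the Delta-like family, had no read in the 4 knockout libraries and 2 reads in each of controls 3 and 4, which is under the level that a count of 0 allows in every library, so no fold is given.

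**Figure D2:**
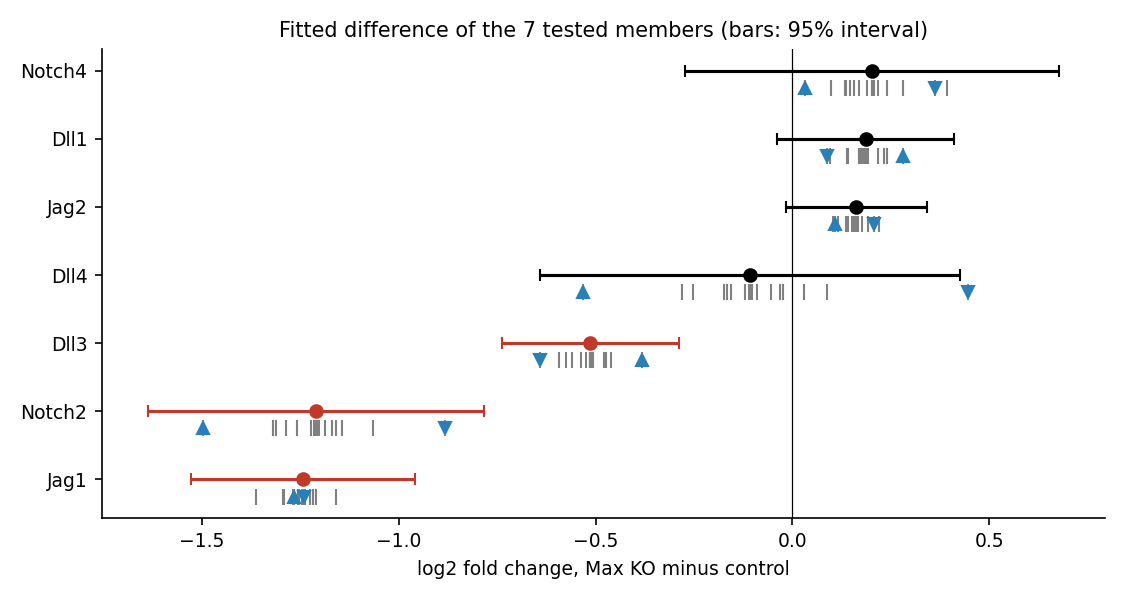
Fitted log2 difference between Max knockout and control for the 7 tested members (x axis), with 95% intervals as bars and red for an adjusted p under 0.05. Grey ticks below each bar are the values under 18 alternative analyses, with blue triangles pointing down for only controls 1 and 2 and pointing up for only controls 3 and 4. The values for Jag1, Notch2 and Dll3 stay below 0 throughout, and those for Dll4 lie on both sides of it.

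To compare genes, CPM was divided by the length of each gene's exons in kilobases, taken from another genome build than the counts. On this scale every ligand other than Dlk1 was above all 4 receptors in both groups, and Dlk1 had the lowest mean of the 10 genes. The smallest of these gaps was 2.87-fold in the control, between Dll4 and Notch2, and 3.00-fold in the knockout, between Jag1 and Notch4. In the control the order was Jag2 (37.6 ± 2.91 CPM per kilobase), Dll3 (20.9 ± 2.31), Dll1 (11.5 ± 1.03), Jag1 (3.32 ± 0.227), Dll4 (1.91 ± 0.723), Notch2 (0.666 ± 0.164), Notch4 (0.405 ± 0.0993), Notch1 (0.0499 ± 0.00310), Notch3 (0.0179 ± 0.0207) and Dlk1 (0.0135 ± 0.0159), each as mean ± SD of 4 libraries. The libraries of neighbouring genes overlapped for Notch2 and Notch4 and for Notch3 and Dlk1. In the knockout, Dll3 (14.6 ± 1.58) and Dll1 (13.1 ± 1.67) overlapped each other, as did Dll4 (1.76 ± 0.267) and Jag1 (1.40 ± 0.249; SD, n = 4 each). Notch1 and Notch3 also overlapped there, as did Notch3 and Dlk1. Notch4 (0.469 ± 0.0786) was then the most abundant receptor per kilobase, above Notch2 (0.287 ± 0.0312; SD, n = 4 each) with no overlap. This gap came from the exon lengths used, 6.59 kilobases for Notch4 and 10.5 for Notch2. In CPM the knockout libraries of both genes overlapped, at 3.09 ± 0.518 for Notch4 and 3.02 ± 0.327 for Notch2 (SD, n = 4 each). Among the 17170 genes with a read and a known length, Jag2 lay at the 88.5th percentile of level in the control, Dll3 at the 78.7th, Jag1 at the 47.5th, Notch2 at the 34.7th and Notch1 at the 18.7th.

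The balance of activating and inhibitory ligands was described per library, with no test. The activating ligands were summed over Jag1, Jag2, Dll1 and Dll4. They came to 252, 269, 275 and 310 CPM in the knockout libraries and 256, 251, 247 and 283 CPM in the controls. Most of each sum was Jag2, whose difference did not pass the threshold, as that of Dll1 did not. Jag1, which was lower in the knockout, was a small part. The inhibitory ligands, in effect Dll3, made up 13.0%, 11.3%, 11.9% and 12.4% of summed ligand CPM in the knockout and 18.8%, 19.3%, 17.4% and 14.4% in the control. The groups did not overlap, and control 4 was the nearest to the knockout. The mean share was 12.1% ± 0.723 in the knockout and 17.5% ± 2.22 in the control (SD, n = 4 each). Per kilobase of exon it was 20.0% ± 1.09 and 27.7% ± 3.06. Set against Dll1 alone, Dll3 made up 43.7% to 47.7% of the CPM of both genes together in the knockout and 54.3% to 58.6% in the control. Jag2 made up 72.2% ± 0.853 of the activating ligands per kilobase in the knockout and 69.2% ± 1.55 in the control (SD, n = 4 each).

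**Figure D3:**
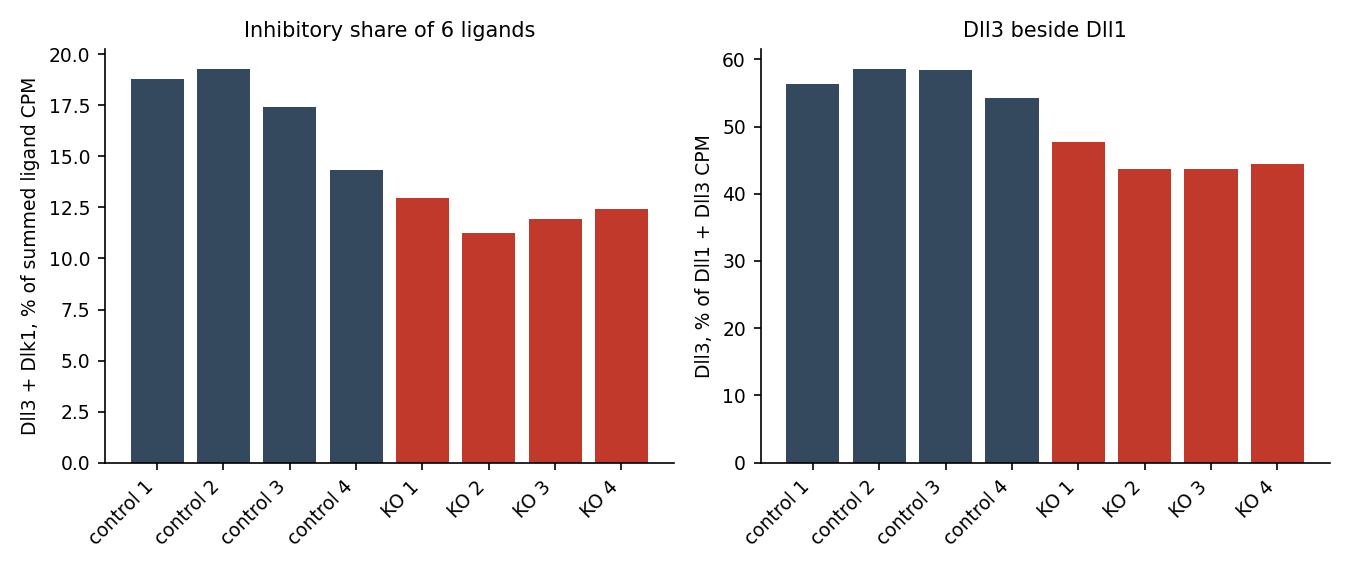
Share of the inhibitory ligands Dll3 and Dlk1 in the summed CPM of all 6 ligands (left, percent) and share of Dll3 in the CPM of Dll1 and Dll3 (right, percent), 1 bar per library, with controls in dark blue and Max knockout in red. On the left the knockout bars reach 11.3% to 13.0% and the control bars 14.4% to 19.3%.

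Promoter sequences are shown for the 3 genes that fell, and for Dll1 and Dll4, the Delta genes that did not pass the threshold, because MAX dimers bind the E-box CACGTG and many other basic helix-loop-helix factors bind the E-box CAGCTG. The windows run from 250 bases before to 50 bases after each start in RefSeq's GRCm38.p6 annotation, and all 10 genes matched, with 11 windows, since Dll1 has 2 starts. CACGTG was in 0 of the 11 windows, against 7.15% of all 32851 windows of the same length. CAGCTG was in 3, those of Jag1, of Dll3 and of the upstream start of Dll1, against 16.3% of all windows. Both motifs read the same on either strand and do not overlap each other. The lines below give the 250 bases before the start, 5′ to 3′ on the gene's strand, with CAGCTG in capitals. It begins at -82 in Jag1, -7 in Dll3 and -132 in Dll1, counted from the start, and is absent from the sequences of Notch2 and Dll4.
Notch2, chr3:98013288-98013537, plus strand: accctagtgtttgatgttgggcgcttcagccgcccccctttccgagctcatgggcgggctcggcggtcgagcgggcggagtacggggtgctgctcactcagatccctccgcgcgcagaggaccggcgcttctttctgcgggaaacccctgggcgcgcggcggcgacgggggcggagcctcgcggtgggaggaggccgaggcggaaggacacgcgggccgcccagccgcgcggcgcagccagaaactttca
Jag1, chr2:137116521-137116770, minus strand: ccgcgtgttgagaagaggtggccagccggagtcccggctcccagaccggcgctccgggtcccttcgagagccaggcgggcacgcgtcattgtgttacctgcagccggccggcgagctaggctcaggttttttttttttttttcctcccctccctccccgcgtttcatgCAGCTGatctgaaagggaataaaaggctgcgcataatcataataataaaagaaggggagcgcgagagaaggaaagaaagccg
Dll3, chr7:28301786-28302035, minus strand: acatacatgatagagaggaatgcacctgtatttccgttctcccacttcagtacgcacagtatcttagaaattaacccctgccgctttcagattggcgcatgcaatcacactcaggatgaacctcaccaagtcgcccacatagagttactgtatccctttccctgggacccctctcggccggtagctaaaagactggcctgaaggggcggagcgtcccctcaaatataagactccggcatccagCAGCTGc
Dll1, chr17:15376933-15377182, minus strand: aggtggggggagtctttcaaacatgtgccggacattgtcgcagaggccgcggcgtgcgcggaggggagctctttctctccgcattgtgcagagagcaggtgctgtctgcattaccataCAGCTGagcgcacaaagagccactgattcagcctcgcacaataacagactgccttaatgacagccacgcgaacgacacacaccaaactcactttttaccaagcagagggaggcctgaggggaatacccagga
Dll4, chr2:119325534-119325783, plus strand: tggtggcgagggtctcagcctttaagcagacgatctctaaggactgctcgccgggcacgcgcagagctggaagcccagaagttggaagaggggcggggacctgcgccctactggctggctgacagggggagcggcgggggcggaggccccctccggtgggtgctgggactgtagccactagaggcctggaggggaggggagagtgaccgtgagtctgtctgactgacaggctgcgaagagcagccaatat
Jag1 and Dll3 thus share CAGCTG with the upstream start of Dll1, a gene whose difference did not pass the threshold. The window of the other Dll1 start, not shown, lacked CAGCTG, and the letters alone say nothing of binding in these cells.

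Other genes of the pathway were taken from a list of 55, of which 50 had enough reads to be tested. Of these, 6 rose and 8 fell, while 36 were not past the threshold, and the list had a median log2 difference of -0.02. Among all tested genes, 10.9% were higher and 12.2% lower. The counts by role below are to be read against these shares. Of the 14 called genes, 7 kept their call in every alternative, namely Psen2, Ncstn, Dtx1, Dtx4, Fbxw7, Numbl and Dlk2. Against controls 1 and 2 alone, 11 were higher and 14 lower, in a fit that called 44.6% of all tested genes. Against controls 3 and 4 alone, 6 were higher and 4 lower, in a fit that called 20.7%. Without knockout library 2, 3 fell, and 5 fell when knockout library 3 or 4 or control 1 or 2 was left out. Over all genes, 1139 were lower without knockout library 2, against 1627 in the full data.

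Among the 8 genes of receptor cleavage, 2 subunits of gamma-secretase, the enzyme that frees the intracellular part of Notch, rose. Ncstn, which encodes nicastrin, was at 148 to 167 CPM in the knockout libraries and 90.5 to 113 CPM in the controls (0.60, SE 0.08, edgeR adjusted p = 0.000363). Psen2, which encodes a catalytic subunit, presenilin 2, was at 25.2 to 32.0 and 13.2 to 18.2 CPM (0.82, SE 0.11, edgeR adjusted p = 0.000464). Neither gene's groups overlapped. Aph1a, Aph1b, Aph1c, Psenen, Adam10 and Adam17 did not pass the threshold.

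Of 6 genes that modify or mature the receptor, Lfng, which encodes lunatic fringe, a glycosyltransferase that shifts receptors towards Delta ligands, rose from 96.7 ± 19.5 to 137 ± 11.6 CPM (SD, n = 4 each; 0.50, edgeR adjusted p = 0.0160). The rise was 0.29 with controls 1 and 2 and 0.74 with controls 3 and 4, and the call ended without knockout library 4 (adjusted p = 0.0561). The other fringe genes, Mfng (0.21, adjusted p = 0.0766) and Rfng (0.15, adjusted p = 0.514), were not past the threshold by edgeR. Of 4 ligand ubiquitin ligases, Mib2 fell (-0.32, edgeR adjusted p = 0.0411), although it was not past the threshold in 5 of the 8 fits that each dropped 1 library nor against controls 3 and 4 alone, with no filter or with a replicate block. Mib1, the main activator of ligand endocytosis, was at 43.9 ± 9.44 and 43.2 ± 10.3 CPM (SD, n = 4 each).

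Of 10 negative regulators, 3 fell and 1 rose. Dtx1, a Deltex ubiquitin ligase gene and itself a known Notch target, had 13.6, 13.9, 18.5 and 22.7 CPM in the knockout libraries against 50.2, 51.5, 39.9 and 32.2 CPM in the controls (-1.34, SE 0.19, edgeR adjusted p = 0.000611). Its paralogue Dtx4 went the other way, from 28.4 ± 7.33 to 47.6 ± 3.21 CPM (SD, n = 4 each; 0.75, edgeR adjusted p = 0.00452), by 1.07 with controls 1 and 2 and by 0.46 with controls 3 and 4. Fbxw7, which marks the intracellular part of Notch and also MYC for degradation, fell from 54.0 ± 2.31 to 37.9 ± 6.05 CPM (SD, n = 4 each; -0.51, edgeR adjusted p = 0.00487). The Numb-like gene Numbl fell as well (-0.40, edgeR adjusted p = 0.0135), while Nrarp, a feedback inhibitor, was at 32.3 ± 2.41 and 29.7 ± 8.62 CPM (SD, n = 4 each) and did not pass the threshold.

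Of the 14 genes of the nuclear complex and its corepressors, 1 rose and 1 fell by small amounts, Maml3, a coactivator gene (0.30, edgeR adjusted p = 0.0430), and Snw1, which encodes the cofactor SKIP (-0.26, edgeR adjusted p = 0.0289). Leaving out 1 library ended the call of Maml3 in 7 of 8 fits and that of Snw1 in 5. Both calls also ended with a replicate block and with only controls 3 and 4, and that of Maml3 with upper-quartile scaling and with either other filter. Rbpj, at 111 ± 6.17 CPM against 122 ± 5.46 CPM in the control libraries (SD, n = 4 each), did not pass the threshold (edgeR adjusted p = 0.171).

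Of 7 target genes, 2 fell, 2 did not pass the threshold and 3 had too few reads. Hey1 fell from 27.9 ± 0.898 to 23.2 ± 1.54 CPM (SD, n = 4 each; -0.26, edgeR adjusted p = 0.0359), and Hes5 from 1.24 ± 0.203 to 0.605 ± 0.211 CPM (SD, n = 4 each; -1.01, edgeR adjusted p = 0.0300), a gene with 125 reads in all 8 libraries. The call was lost without 1 library in 5 of 8 fits for Hey1 and 4 of 8 for Hes5, and for both with only controls 3 and 4 and with no filter. It was also lost for Hey1 with a replicate block (edgeR adjusted p = 0.0817) and for Hes5 in DESeq2 (adjusted p = 0.0606). Hes1 was at 15.5 ± 2.92 and 15.3 ± 4.37 CPM (SD, n = 4 each; 0.02, 95% interval -0.42 to 0.46). Rest is the repressor of neuronal genes that Notch can induce in small cell lung cancer cells. It had 1, 0, 0 and 2 reads in knockout libraries 1 to 4 and 8, 2, 2 and 0 in controls 1 to 4. Heyl had 1, 3, 4 and 2 reads in the knockout and 22, 12, 5 and 4 in the controls. The groups overlapped in CPM for both genes, and neither gene was tested.

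Among ligands without the activating domain and modulators, Dlk2, the paralogue of Dlk1, rose from 8.31 ± 2.15 to 15.1 ± 1.09 CPM (SD, n = 4 each; 0.87, SE 0.16, edgeR adjusted p = 0.00298), by 1.21 with controls 1 and 2 and by 0.57 with controls 3 and 4. Mfap2, which encodes a microfibril protein, fell (-1.65, edgeR adjusted p = 0.0140). It was at 2.52 and 3.19 CPM in controls 1 and 2 and at 10.2 and 5.05 CPM in controls 3 and 4, against 1.13 to 1.90 CPM in the knockout. The fall was by 0.79 on the log2 scale with the first pair and by 2.20 with the second, and the call ended without knockout library 2 (adjusted p = 0.0516). Dner was at 220 ± 10.5 and 248 ± 31.5 CPM and Nov at 2285 ± 111 and 2007 ± 243 CPM (SD, n = 4 each), and neither passed the threshold.

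**Figure D4:**
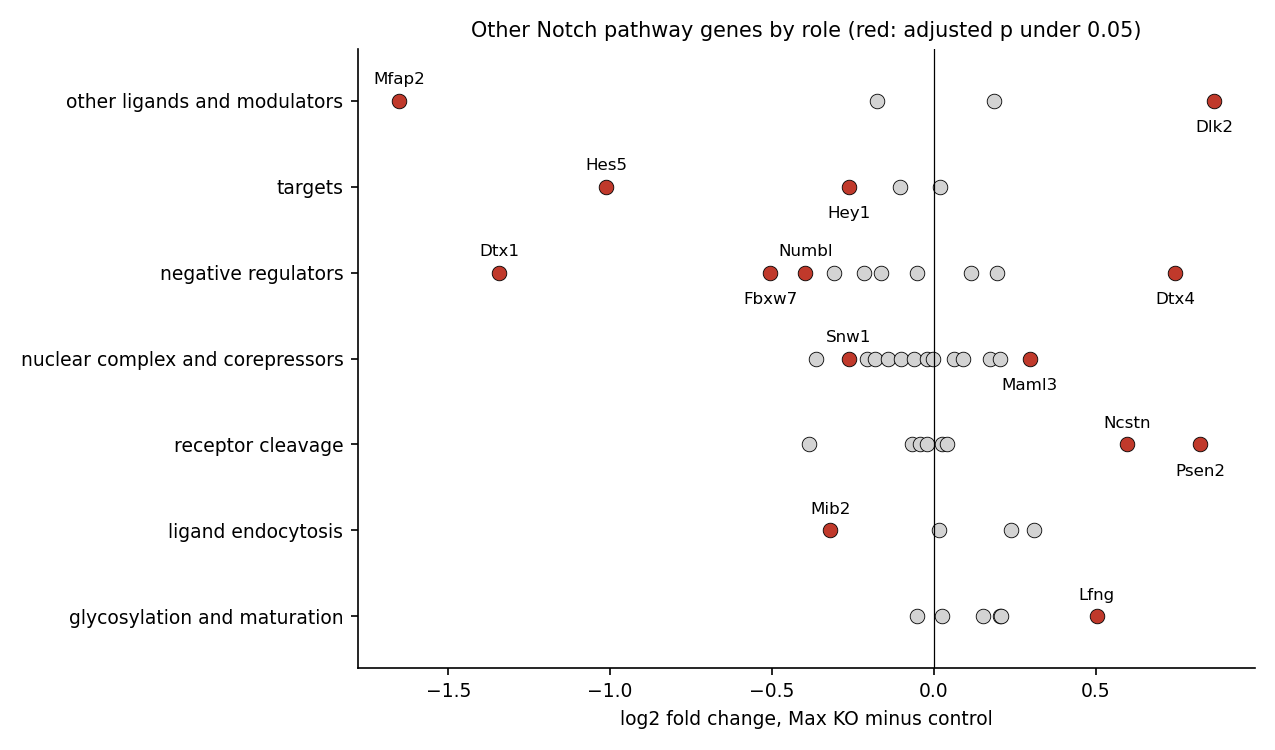
Fitted log2 difference between Max knockout and control (x axis) for the 50 tested genes of the pathway other than the 10 receptors and ligands, 1 point per gene, grouped by role. Named red points are the 14 genes at an adjusted p under 0.05, with Ncstn and Psen2 to the right in receptor cleavage and Dtx1 and Dtx4 on opposite sides in the negative regulators.

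The transcription factor genes Insm1 and Hes6 did not pass the threshold, and Neurod1 was not tested. Insm1, a neuroendocrine repressor gene, was at 701 ± 83.0 and 700.2 ± 65.7 CPM, and Hes6, a Hes relative that opposes Hes1, at 303 ± 26.1 and 263 ± 28.5 CPM (SD, n = 4 each). Neurod1 had 3, 0, 1 and 1 reads in knockout libraries 1 to 4 and 28, 21, 33 and 2 in controls 1 to 4. It ranged up to 0.157 CPM in the knockout and was at 1.41, 1.26, 2.42 and 0.112 CPM in the controls. The gene did not pass the filter on low counts.

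The genes most like each fallen member were found by Pearson correlation of log2 CPM over the 8 libraries, a description that the difference between groups itself raises. For Notch2 they were Camk2b (0.996), Mark1 (0.991) and Tle4 (0.990), for Jag1 Setd2 (0.995), Zfp27 (0.989) and Arhgef17 (0.988), and for Dll3 Traip (0.998), Pard6a (0.989) and Acaa1a (0.988). All 9 were lower in the knockout, from -0.30 for Pard6a to -1.56 for Camk2b. When deviations from group means were used in place of levels, Traip (0.994) stayed the nearest to Dll3, and the nearest to Notch2 and Jag1 became Setd5 (0.993) and Adnp (0.985), which did not pass the threshold (0.14 and 0.05).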

How the data were processed

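Gene expression was measured by RNA sequencing in 4 Max knockout and 4 control libraries of mouse preSC cells. Per the labels' protocols, RNA was extracted with TRIZOL and 500 ng went into an NEB Ultra RNA kit. The deposited values are raw read counts per gene symbol, 1 table per library. The submitters' processing notes name bcl2fastq 1.8.4, TopHat2 2.0.12, HTSeq 0.6.1 and the mm9 genome. The annotation is not given in the sources used here, nor is the strand setting, so overlapping and antisense genes are not told apart. Rows that name no gene held 27.0% to 33.1% of all counts and were left out.

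Genes were kept with filterByExpr (13358 of 23284) and compared with edgeR 4.0.16 in R 4.3.3, with TMM scaling, glmQLFit (robust) and group as the only term, with Benjamini-Hochberg adjustment over all tested genes. Standard errors were obtained as the log2 fold change over the root of F, and 95% intervals from the fit's degrees of freedom. The procedure was tested on simulated data. Exon lengths are unions of GENCODE M21 basic transcripts on GRCm38, another build than that of the counts. Promoters are RefSeq's, and no other coordinates are given. No protein sequences were compared here, although this had been planned. No 2 libraries of a group agreed within sampling noise (chi-square per degree of freedom, over genes with at least 10 reads, 3.70 to 9.34 in knockout pairs and 4.55 to 35.7 in control pairs).

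The members, gene lists, alternatives and the rule for named genes (all members, called pathway genes up to 4 a role by smallest p, and the 3 genes most like each called member whose average log2 CPM reached 1) were chosen with earlier results of these data known. The alternatives tried were scaling by RLE or by the upper quartile, DESeq2 1.42.0, limma-voom (limma 3.58.1), no filter, a minimum of 1 CPM in 4 libraries, no robust estimation, a replicate block, leaving out each library, and keeping only controls 1 and 2 or 3 and 4. Mfng, Rfng, Mib1, Nrarp, Rbpj, Hes1, Rest, Heyl, Dner and Nov, which were not called, were chosen for naming after their values were seen. Results for 2 genes of the lists are not reported here.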

Additional observations from a re-analysis of the deposited data

Results flagged for a closer look

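In groups of 4 libraries, 2 of the 58 sets of values examined held a library that stood apart from the other 3 by Dixon's test (gap over range above 0.829), which chance gives in about 1 in 20. Control 4 stood apart for Notch4, at 3.65 CPM against 2.27 to 2.42 CPM in the other controls. It also stood apart for Jag2, at 214 CPM against 182 to 187 CPM. Neither gene was past the threshold between the groups, and the causes were not tested.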

How the results depend on the processing

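The falls of Notch2, Jag1 and Dll3 kept direction and call in all 18 alternatives, with adjusted p up to 0.00657, 0.000710 and 0.0256. The number of members lower was 3 in each fit without 1 library and the number higher was 0. Against controls 1 and 2 alone, 2 members rose (Jag2 and Dll4) and 3 fell, where 44.6% of all tested genes were called. Against controls 3 and 4 alone, 4 fell, where 20.7% of all tested genes were called. Dll4 reversed to 0.45 against controls 1 and 2, to 0.03 when control 3 was dropped and to 0.088 when control 4 was dropped (-0.28 to 0.088 over the fits without 1 library), and the cause was not tested. Other pathway genes: without 1 library, 4 to 8 rose and 3 to 10 fell. The first pair of controls alone gave 11 rises and 14 falls and the second pair 4 falls, to be read beside the same shares of all genes. Over all genes, 963 to 1846 were higher and 1139 to 1929 lower without 1 library, and 2987 and 3081 with only controls 1 and 2, against 1457 and 1627 in the full data. Upper-quartile scaling moved the share of falls among called genes from 52.8% to 62.9% and the median of all genes to -0.05.

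The difference in the inhibitory share of ligand CPM was -5.31 percentage points, and -6.34 to -4.70 without 1 library, -6.88 with only controls 1 and 2 and -3.74 with only controls 3 and 4. Per kilobase it was -7.74, because the exon length used for Dll3 (2.62 kilobases) was the shortest of the ligands. Replicate numbers did not pair the libraries. Deviations of same-numbered libraries correlated at -0.20 to 0.00198. With a replicate block, 5 other pathway genes fell instead of 8, and the 3 members kept their calls. Depth limits Notch1, Notch3 and Dlk1, which were not tested, and Notch2, with 43 to 159 reads a library.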
